A study of Mus musculus with 11 samples.

Results

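The hepatic genes of amino acid catabolism described here are 40 genes, chosen by symbol from the 31280 rows of the deposited gene table, and all 40 were among the 10489 genes tested. They fall into a tryptophan arm of 9 genes, a phenylalanine and tyrosine arm of 5, a histidine arm of 4, a branched-chain amino acid and propionate arm of 16, and an arm of 6 genes for glycine, serine, proline and lysine. Liver RNA was sequenced from wild-type C57BL/6 mice, all fed for 8 weeks a diet deficient in methionine and choline (MCD), which gives a fatty, inflamed and fibrotic liver in mice. The limonin group had 6 libraries from mice that also received limonin, a citrus limonoid, into the stomach at 100 mg/kg, with a treatment time of 4 weeks in the labels, and the MCD group had 5 libraries from mice given water in the same way. The question the design puts is which liver transcripts differ between limonin and water on this diet. Livers of healthy, fully fed mice were not analysed here. Neither age nor sex of the mice is given in these sources.

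The liver is the main site at which most amino acids are broken down. Their nitrogen goes to urea and their carbon skeletons feed the citric acid cycle, gluconeogenesis or ketone bodies. Tryptophan is oxidised through kynurenine towards NAD or acetyl-CoA, tyrosine through homogentisate to fumarate, and histidine through urocanate to glutamate and a folate-bound carbon unit. Muscle starts the breakdown of leucine, isoleucine and valine, and the liver oxidises the ketoacids that result, with valine and isoleucine ending as propionyl-CoA. Several of these enzymes are enriched in hepatocytes near the portal vein, and glucagon and glucocorticoids are known to induce a number of them.

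Values are FPKM (fragments per kilobase of transcript, scaled to the depth of the library), which allow for length, so levels can be set side by side between genes. The libraries held an implied 15400000 to 19600000 fragments and 9742 to 11087 genes at 1 FPKM or more. Differences are log2 fold changes, limonin minus MCD, on the log2(FPKM + 1) scale with their SE. A gene counts as higher or lower at a limma adjusted p (Benjamini-Hochberg over all genes tested) under 0.05. The labels number the libraries as replicates without saying in so many words that each is 1 mouse, so the p-values measure the spread between these libraries.

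Of the 40 genes, 19 were higher with limonin, 1 was lower and 20 did not pass the test. Over all genes tested, 25.9% passed, 7.24% as higher and 18.7% as lower, so 47.5% of these genes against 7.24% of all genes were higher. That contrast depended on the scaling: it was 57.5% against 14.0% with median-ratio scaling, 57.5% against 17.3% with quantile normalization and 60.0% against 10.3% at equal summed FPKM. The median log2 fold change was 0.33 over the 40 genes and -0.07 over all genes tested, and 36 of the 40 values were above 0, against 41.1% of all genes tested. In 11 of the 40 genes every limonin library lay above every MCD library, which was so for 2.97% of all genes tested, and in 1 gene every limonin library lay below, which was so for 8.33%. The authors' deposited table marks 13 of the 40 genes as significantly higher and 0 as lower, and all 13 were also higher in the limma test. That mark was on 3.99% of all genes tested for higher and on 10.6% for lower. It does not rest on q alone: the deposited q was under 0.05 for 23 of the 40 genes as higher and 0 as lower. Ftcd, with a deposited q of 0.000144, was unmarked and Amt, with 0.000214, was marked. The mark and the limma call therefore use unlike thresholds. The number higher was 12 of 40 without the library MCD 2, where 3.13% of all genes were higher, and 6 of 40 without both MCD 1 and MCD 2, a choice made after seeing the data, where 0.515% of all genes were higher. Scaling the libraries to an equal level of hepatocyte markers, also chosen after seeing the data, put the median of all genes at -0.29 and that of the 40 genes at 0.10, with 9 of the 40 higher and 2 lower, against 1.39% and 38.0% of all genes. In bulk liver, more cells of a type and more RNA per cell cannot be told apart.

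**Figure D1:**
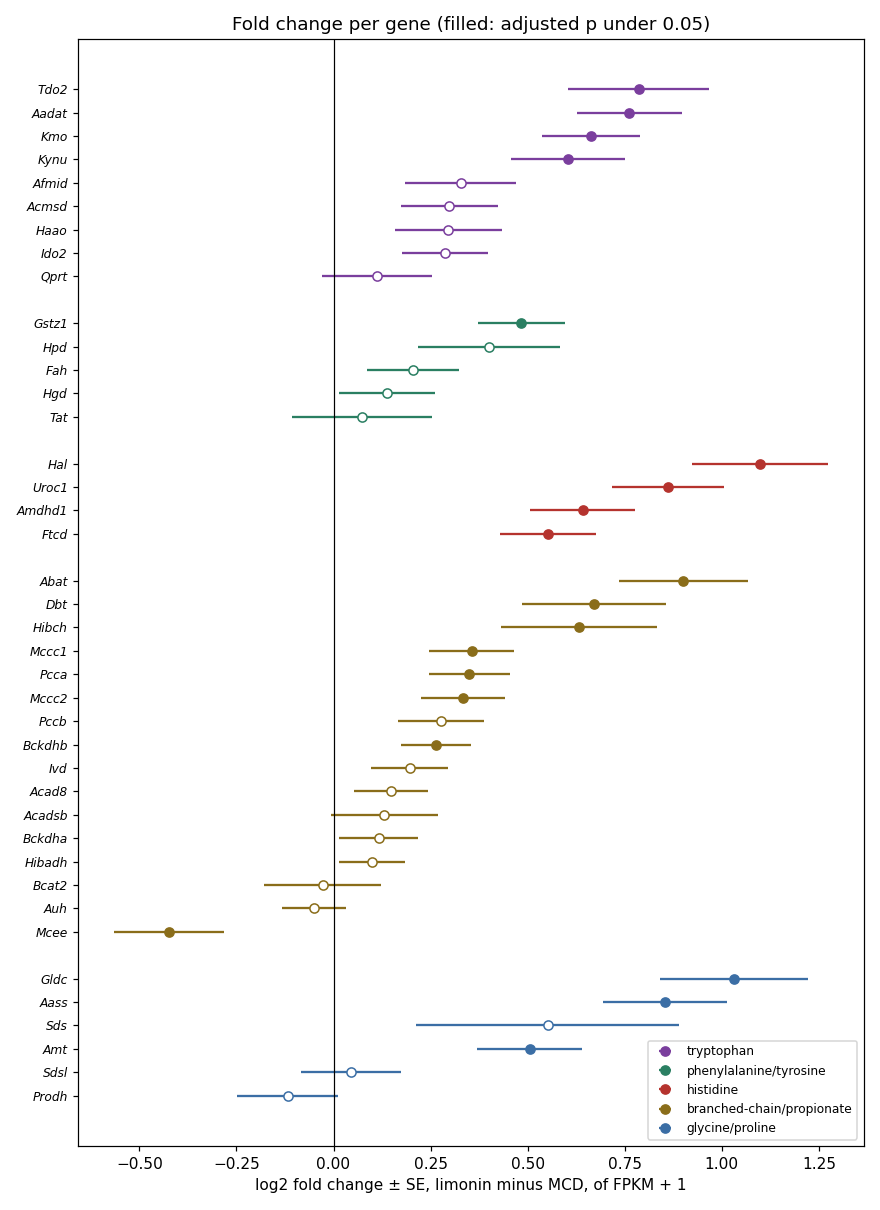
Log2 fold change, limonin minus MCD, on the log2(FPKM + 1) scale for each of the 40 genes by arm, with SE from limma as bars; filled points passed the test. The 4 histidine genes lie between 0.55 and 1.10, and Mcee, at -0.42, is the only gene that passed the test on the lower side.

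All 4 genes of histidine breakdown were higher with limonin, with a median log2 fold change of 0.75. Their summed level was 239.1 to 325.3 FPKM across the limonin libraries, against 144.7 to 218.2 FPKM across the MCD libraries, with no overlap. Hal encodes histidine ammonia-lyase, which removes ammonia from histidine to give urocanate; Uroc1, urocanate hydratase, and Amdhd1, imidazolonepropionase, carry the product on to formiminoglutamate, and Ftcd passes the formimino group to folate. In the GRCm38 annotation Hal lies at chr10:93488768-93519304 on the plus strand, Amdhd1 at chr10:93523338-93540033 on the minus strand, Ftcd at chr10:76575648-76590338 on the plus strand and Uroc1 at chr6:90333284-90364551 on the plus strand. The 4 promoters are shown because this was the arm in which every gene passed the test; they are RefSeq sequences of GRCm38.p6, 5′ to 3′ on the strand of the gene, from 250 bases before the start to 50 after it. They span chr10:93488518-93488817 for Hal, chr6:90333039-90333338 for Uroc1, chr10:93539984-93540283 for Amdhd1 and chr10:76575398-76575697 for Ftcd.
Hal: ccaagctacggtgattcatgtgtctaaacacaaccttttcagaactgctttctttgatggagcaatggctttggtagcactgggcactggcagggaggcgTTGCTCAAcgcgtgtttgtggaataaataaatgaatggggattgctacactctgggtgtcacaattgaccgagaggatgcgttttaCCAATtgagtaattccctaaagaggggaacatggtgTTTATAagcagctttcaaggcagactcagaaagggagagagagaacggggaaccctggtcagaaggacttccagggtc
Uroc1: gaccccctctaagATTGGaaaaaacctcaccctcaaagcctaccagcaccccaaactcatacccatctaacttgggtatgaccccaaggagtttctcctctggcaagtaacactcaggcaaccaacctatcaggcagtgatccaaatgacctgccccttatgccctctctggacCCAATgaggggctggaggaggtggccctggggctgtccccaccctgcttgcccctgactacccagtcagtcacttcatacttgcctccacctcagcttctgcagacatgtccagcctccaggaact
Amdhd1: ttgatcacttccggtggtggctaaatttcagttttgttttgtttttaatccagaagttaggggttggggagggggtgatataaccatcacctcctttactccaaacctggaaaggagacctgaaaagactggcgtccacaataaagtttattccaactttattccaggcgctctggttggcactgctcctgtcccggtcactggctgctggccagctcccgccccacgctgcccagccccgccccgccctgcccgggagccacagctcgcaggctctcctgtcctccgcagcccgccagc
Ftcd: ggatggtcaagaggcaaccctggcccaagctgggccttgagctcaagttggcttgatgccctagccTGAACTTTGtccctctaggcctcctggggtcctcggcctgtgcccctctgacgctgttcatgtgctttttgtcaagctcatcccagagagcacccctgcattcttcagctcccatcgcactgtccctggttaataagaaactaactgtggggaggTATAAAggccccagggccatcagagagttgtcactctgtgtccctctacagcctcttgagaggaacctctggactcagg
Capitals mark matches, on either strand, to the letters TATAAA, known as a core promoter element, the letters CCAAT, known as the binding site of NF-Y, the letters TTGCNNAA for C/EBP factors and the letters CAAAGNNCA for HNF4, and positions count from the start, with bases before it negative. The Hal window holds TTTATA, which is TATAAA on the other strand, at -28 to -23, CCAAT at -64 to -60 and TTGCTCAA at -150 to -143. The Uroc1 window holds CCAAT at -76 to -72 and ATTGG at -237 to -233. The Ftcd window holds TATAAA at -29 to -24 and TGAACTTTG at -184 to -176, and in Amdhd1 none of these letters are in the window. Over all 32851 mouse promoter windows, 13.6% hold TATAAA, 37.4% CCAAT, 10.8% TTGCNNAA and 6.36% CAAAGNNCA. Of the 34 genes described here with a window in the table, 4 hold TATAAA, 18 CCAAT, 4 TTGCNNAA and 4 CAAAGNNCA. These counts are of genes with a match in any of their windows, while the shares are of single windows, so they are not strictly alike. A match describes the letters only.

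Hal had 46.0 FPKM in the lowest limonin library, a median of 52.6 and 84.4 in the highest, against 20.7, 23.1, 29.1, 36.7 and 24.8 FPKM in MCD 1 to 5. The groups did not overlap, and limonin 2 and MCD 4 were the highest of their groups. The mean was 59.0 ± 15.3 FPKM with limonin and 26.9 ± 6.28 FPKM in MCD (SD, n = 6 and 5), and the log2 fold change of 1.10 ± 0.17 (limma adjusted p = 0.00184) was the highest of the 40. Uroc1 had 47.2 FPKM in the lowest limonin library, a median of 55.3 and 87.8 in the highest, against 33.5, 27.9, 27.4, 38.1 and 31.5 FPKM in MCD 1 to 5. Again the groups did not overlap, and the log2 fold change was 0.86 ± 0.14 (adjusted p = 0.00218). Amdhd1 had 40.1 FPKM in the lowest limonin library, a median of 46.1 and 52.1 in the highest, against 23.2, 24.7, 31.0, 41.9 and 30.2 FPKM in MCD 1 to 5. MCD 4 reached into the limonin range, 5 of 6 limonin libraries lay above all of MCD, and the log2 fold change was 0.64 ± 0.14 (adjusted p = 0.00555). Ftcd, the most abundant of the 4, had 101 FPKM in the lowest limonin library, a median of 108 and 126 in the highest, against 67.4, 75.9, 61.1, 102 and 72.5 FPKM in MCD 1 to 5. Here too MCD 4 lay within the limonin range while the other 4 MCD libraries lay below it, and the log2 fold change was 0.55 ± 0.12 (adjusted p = 0.0073). All 4 calls held when any 1 library was left out. Without both MCD 1 and MCD 2, 2 of the 4 passed, and Amdhd1 and Ftcd did not; at an equal hepatocyte marker level 3 of the 4 passed and Ftcd did not.

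In the tryptophan arm 4 of 9 genes were higher with limonin and 0 were lower, with a median log2 fold change of 0.33. The 4 were the entry enzyme Tdo2 and the enzymes Kmo, Kynu and Aadat, which act on kynurenine or its hydroxylated product. The summed level of the 9 genes was 232.2 to 351.1 FPKM in limonin libraries, against 165.7 to 212.1 FPKM in MCD libraries. Tdo2, at chr3:81957090-81976202 on the minus strand, encodes tryptophan dioxygenase, which opens the indole ring and is the main hepatic entry to the kynurenine route. Its level was 88.2 FPKM in the lowest limonin library, a median of 116 and 158 in the highest, against 65.1, 47.1, 78.4, 75.6 and 77.0 FPKM in MCD 1 to 5. Every limonin library lay above every MCD library, with means of 120 ± 31.1 FPKM for limonin and 68.7 ± 13.1 FPKM for MCD and a log2 fold change of 0.79 ± 0.18 (adjusted p = 0.00888). Ido2, a second dioxygenase for the same step with a level far lower than that of Tdo2, had 1.77 FPKM in the lowest limonin library, a median of 2.10 and 2.49 in the highest, against 1.11, 1.45, 1.92, 1.998 and 1.37 FPKM in MCD 1 to 5. The groups overlapped and the log2 fold change of 0.29 ± 0.11 did not pass (adjusted p = 0.0683), although it did without MCD 4 (adjusted p = 0.0402). Ido2 also passed with median-ratio scaling, quantile normalization and equal summed FPKM (limma adjusted p = 0.0426, 0.0362 and 0.0395).

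Kmo, kynurenine monooxygenase, leads towards quinolinate and NAD. Its level was 26.7 FPKM in the lowest limonin library, a median of 30.4 and 43.7 in the highest, against 22.4, 16.6, 18.3, 20.4 and 20.1 FPKM in MCD 1 to 5. No library overlapped between the groups, and the log2 fold change was 0.66 ± 0.12 (adjusted p = 0.00349). Aadat, an aminotransferase that turns kynurenine into kynurenic acid and also acts in lysine breakdown, had 11.9 FPKM in the lowest limonin library, a median of 13.8 and 21.3 in the highest, against 7.29, 7.95, 8.07, 10.6 and 7.52 FPKM in MCD 1 to 5. The groups did not overlap, although MCD 4 stood above the other MCD libraries and limonin 2 above the other limonin libraries. The log2 fold change of Aadat was 0.76 ± 0.14 (adjusted p = 0.00277). Kynu, kynureninase, which cleaves alanine from kynurenine and hydroxykynurenine, had 6.45 FPKM in the lowest limonin library, a median of 9.19 and 11.9 in the highest, against 5.30, 4.30, 5.25, 7.11 and 5.75 FPKM in MCD 1 to 5. Of the 6 limonin libraries 5 lay above all of MCD, and the log2 fold change was 0.60 ± 0.15 (adjusted p = 0.0109).

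Of the enzymes after kynureninase, Haao, which opens the ring of hydroxyanthranilate, averaged 36.2 ± 4.14 FPKM with limonin and 29.8 ± 6.66 FPKM in MCD, and its log2 fold change of 0.30 ± 0.14 did not pass (adjusted p = 0.125). The product of Haao is either decarboxylated by Acmsd, away from NAD, or closes to quinolinate, which Qprt converts towards NAD. Acmsd averaged 5.01 ± 1.12 FPKM with limonin and 3.85 ± 0.498 FPKM in MCD, a log2 fold change of 0.30 ± 0.12 (adjusted p = 0.0912). Acmsd passed with median-ratio scaling, quantile normalization and equal summed FPKM (adjusted p = 0.0188, 0.0147 and 0.0409), and Haao at equal summed FPKM (adjusted p = 0.0372). Qprt averaged 52.9 ± 11.1 FPKM with limonin and 48.3 ± 5.91 FPKM in MCD, and its log2 fold change of 0.11 had a 95% confidence interval of -0.19 to 0.41. Afmid, arylformamidase, averaged 4.76 ± 0.617 FPKM with limonin and 3.67 ± 1.09 FPKM in MCD (adjusted p = 0.104, or 0.0462 without MCD 3), and 44.2% of its exonic bases are shared on the same strand with the annotated gene Gm20708, so its value is uncertain. The 4 higher calls held when any 1 library was left out. Without MCD 1 and MCD 2 the calls of Tdo2 and Kynu were lost, and at an equal hepatocyte marker level that of Kynu.

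In the phenylalanine and tyrosine arm 1 of 5 genes, Gstz1, was higher with limonin and 0 were lower; the median log2 fold change was 0.21. This arm held the most abundant transcripts of the 40 genes, and its summed level, 1207 to 1668 FPKM in limonin libraries and 900.5 to 1563 FPKM in MCD libraries, overlapped between the groups. Gstz1, at chr12:87147165-87164723 on the plus strand, encodes maleylacetoacetate isomerase, the last step but one of tyrosine breakdown. Its level was 108 FPKM in the lowest limonin library, a median of 119 and 143 in the highest, against 71.3, 76.8, 94.1, 102 and 89.7 FPKM in MCD 1 to 5. The groups did not overlap, and the log2 fold change was 0.48 ± 0.11 (adjusted p = 0.00821); this call held without any 1 library, and was lost without MCD 1 and MCD 2 and at an equal hepatocyte marker level. Tat, tyrosine aminotransferase, the first and hormone-regulated step, had 301 FPKM in the lowest limonin library, a median of 457 and 573 in the highest, against 355, 498, 363, 592 and 394 FPKM in MCD 1 to 5. The ranges lay over each other, and the log2 fold change of 0.07 had a 95% confidence interval of -0.31 to 0.46 (adjusted p = 0.796). Hpd, hydroxyphenylpyruvate dioxygenase, had 423 FPKM in the lowest limonin library, a median of 524 and 615 in the highest, against 238, 394, 497, 521 and 396 FPKM in MCD 1 to 5. MCD 1 was the lowest and the other 4 MCD libraries came close to or into the limonin range. The log2 fold change of 0.40 ± 0.18 did not pass (adjusted p = 0.118), although Hpd did at equal summed FPKM (limma adjusted p = 0.0478). Hgd, homogentisate dioxygenase, averaged 131 ± 16.7 FPKM with limonin and 120 ± 18.8 FPKM in MCD (adjusted p = 0.432). Fah, fumarylacetoacetate hydrolase, the last step, averaged 213 ± 26.6 FPKM with limonin and 185 ± 25.0 FPKM in MCD (adjusted p = 0.216). MCD 1 was the lowest and MCD 4 the highest MCD library in all 5 genes.

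In the branched-chain and propionate arm 7 of 16 genes were higher with limonin, 1 was lower and 8 did not pass, with a median log2 fold change of 0.23. The 7 were Abat, Dbt, Hibch, Mccc1, Pcca, Mccc2 and Bckdhb, and the lower gene was Mcee. The summed level of the 16 genes was 447.6 to 489.9 FPKM in limonin libraries and 354.0 to 468.8 FPKM in MCD libraries. Abat, at chr16:8513429-8621568 on the plus strand, encodes the mitochondrial transaminase of GABA and of an intermediate of valine breakdown. Its level was 17.1 FPKM in the lowest limonin library, a median of 18.5 and 33.6 in the highest, against 8.18, 9.19, 11.1, 13.2 and 10.6 FPKM in MCD 1 to 5. No MCD library reached the limonin range, limonin 2 stood above the other 5 limonin libraries, and the log2 fold change was 0.90 ± 0.17 (adjusted p = 0.00324). Of the 8 calls in this arm, that of Abat alone held without any 1 library.

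Bcat2, the mitochondrial aminotransferase of the first step, had 9.06 to 15.1 FPKM in limonin libraries and 10.4 to 17.2 FPKM in MCD libraries, with a log2 fold change of -0.03 and a 95% confidence interval of -0.35 to 0.30. Of its exonic bases 15.9% lie opposite the antisense gene 0610005C13Rik, which averaged 54.4 FPKM with limonin and 44.1 FPKM in MCD, so the value of Bcat2 is uncertain without knowing whether strand was used. The branched-chain ketoacid dehydrogenase that follows has a decarboxylase of alpha and beta subunits, Bckdha and Bckdhb, and a transacylase core, Dbt. Bckdha, the most abundant gene of the arm, had 186 FPKM in the lowest limonin library, a median of 209 and 231 in the highest, against 157, 198, 204, 213 and 195 FPKM in MCD 1 to 5 (adjusted p = 0.424). Its ranges overlapped, and 61.7% of its exonic bases lie opposite B3gnt8, which averaged 4.68 FPKM with limonin and 5.61 FPKM in MCD, far below Bckdha. Bckdhb had 36.2 FPKM in the lowest limonin library, a median of 39.6 and 44.3 in the highest, against 27.9, 32.4, 36.1, 35.9 and 32.5 FPKM in MCD 1 to 5. The groups were just apart, and the log2 fold change was 0.26 ± 0.09 (adjusted p = 0.0443), a call lost without any 1 of limonin 1, 2, 4, 5 or 6 or MCD 1, 2 or 5 (adjusted p up to 0.12). Dbt had 4.48 FPKM in the lowest limonin library, a median of 6.24 and 10.9 in the highest, against 4.61, 3.73, 3.74, 4.07 and 3.15 FPKM in MCD 1 to 5. The limonin libraries spread widely and 5 of 6 lay above all of MCD, with a log2 fold change of 0.67 ± 0.19 (adjusted p = 0.0195, or 0.0502 without MCD 2).

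In leucine breakdown, Ivd, isovaleryl-CoA dehydrogenase, did not pass (log2 fold change 0.20 ± 0.10, adjusted p = 0.159). The alpha and beta subunits of methylcrotonyl-CoA carboxylase, which follows it, both passed. Mccc1 averaged 2.80 ± 0.45 FPKM with limonin and 1.96 ± 0.301 FPKM in MCD, a log2 fold change of 0.36 ± 0.11 (adjusted p = 0.0286). Mccc2 averaged 9.67 ± 1.14 FPKM with limonin and 7.48 ± 1.09 FPKM in MCD, a log2 fold change of 0.33 ± 0.11 (adjusted p = 0.0367). In each gene 5 of 6 limonin libraries lay above all of MCD. The call of Mccc1 was lost without any 1 of limonin 2 or 4 or MCD 1, 2 or 3, and that of Mccc2 without any 1 of limonin 1, 2, 3, 4 or 6 or MCD 1, 2 or 3. Auh, methylglutaconyl-CoA hydratase, had a log2 fold change of -0.05 with a 95% confidence interval of -0.23 to 0.12. In valine and isoleucine breakdown, the acyl-CoA dehydrogenases Acad8 and Acadsb did not pass, with log2 fold changes of 0.15 ± 0.10 and 0.13 ± 0.14. Acad8 passed with median-ratio scaling and quantile normalization (limma adjusted p = 0.0241 and 0.0175). Hibch, which frees hydroxyisobutyrate from CoA, had 3.45 FPKM in the lowest limonin library, a median of 5.24 and 8.58 in the highest, against 3.15, 2.23, 3.18, 3.99 and 3.24 FPKM in MCD 1 to 5. Of the 6 limonin libraries 4 lay above all of MCD, and the log2 fold change was 0.63 ± 0.20 (adjusted p = 0.0351). That call was lost without any 1 of limonin 1, 2 or 4 or MCD 1, 2, 3 or 5 (adjusted p up to 0.101). Hibadh, the dehydrogenase that follows, had a log2 fold change of 0.10 ± 0.09 (adjusted p = 0.418).

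Propionyl-CoA carboxylase has an alpha subunit, Pcca, and a beta subunit, Pccb. Pcca had 5.30 FPKM in the lowest limonin library, a median of 6.23 and 8.28 in the highest, against 4.72, 4.90, 4.63, 5.15 and 4.89 FPKM in MCD 1 to 5. All 6 limonin libraries exceeded every MCD library, and the log2 fold change was 0.35 ± 0.10 (adjusted p = 0.0259), lost without any 1 of MCD 1, 2 or 3 (adjusted p up to 0.0598). Pccb had 48.0 FPKM in the lowest limonin library, a median of 59.1 and 64.1 in the highest, against 38.9, 47.1, 47.8, 56.9 and 44.5 FPKM in MCD 1 to 5. MCD 4 lay within the limonin range, and the log2 fold change of 0.28 ± 0.11 did not pass (adjusted p = 0.08), although it did without limonin 1 or MCD 4 (adjusted p = 0.0368 at the lowest). Pccb also passed with median-ratio scaling, quantile normalization and equal summed FPKM (limma adjusted p = 0.0426, 0.0468 and 0.0335). Mcee, at chr7:64392607-64412125 on the plus strand, encodes methylmalonyl-CoA epimerase, the step after propionyl-CoA carboxylase. It had 16.5 FPKM in the lowest limonin library, a median of 27.3 and 30.7 in the highest, against 32.3, 36.4, 31.8, 39.5 and 31.6 FPKM in MCD 1 to 5. All 6 limonin libraries lay below every MCD library, with a log2 fold change of -0.42 ± 0.14 (adjusted p = 0.0404). The call of Mcee was lost without any 1 of limonin 3, limonin 4 or MCD 1 to 5 (adjusted p up to 0.0991), and the authors' deposited table gives it a q of 0.37. Mcee also did not pass with median-ratio scaling, equal summed FPKM or no filter on low values (limma adjusted p = 0.121, 0.0977 and 0.105). The same was so with the replicate block, without MCD 4 and 5 and without MCD 1 and 2 (limma adjusted p = 0.0808, 0.126 and 0.173). Over the arm, the number higher was 1 without MCD 2, 2 without MCD 1, 3 without MCD 3, limonin 2 or limonin 4, and 0 without both MCD 1 and MCD 2. It was also 1 at an equal hepatocyte marker level, where Abat passed, and 1 with no filter on low values.

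In the last arm 3 of 6 genes, Gldc, Aass and Amt, were higher with limonin, 0 were lower and 3 did not pass; the median log2 fold change was 0.53. The glycine cleavage system of mitochondria splits glycine and passes a carbon unit to folate; Gldc, at chr19:30098447-30175429 on the minus strand, is its decarboxylase and Amt, at chr9:108296853-108302302 on the plus strand, its aminomethyltransferase. Gldc had 8.32 FPKM in the lowest limonin library, a median of 12.2 and 19.9 in the highest, against 6.38, 3.50, 5.34, 5.34 and 7.50 FPKM in MCD 1 to 5. Limonin and MCD libraries were fully apart; the means were 12.6 ± 3.89 FPKM for limonin and 5.61 ± 1.48 FPKM for MCD, and the log2 fold change was 1.03 ± 0.19 (adjusted p = 0.0034). Amt had 6.98 FPKM in the lowest limonin library, a median of 8.82 and 12.6 in the highest, against 7.01, 5.59, 5.20, 6.39 and 6.98 FPKM in MCD 1 to 5. The lowest limonin library lay at the top of the MCD range, and the log2 fold change was 0.51 ± 0.14 (adjusted p = 0.0169, or 0.0515 without MCD 2). Aass, at chr6:23072173-23132986 on the minus strand, carries out the first steps of lysine breakdown. Its level was 19.2 FPKM in the lowest limonin library, a median of 23.4 and 39.4 in the highest, against 12.6, 11.8, 12.4, 16.1 and 12.6 FPKM in MCD 1 to 5. All 6 limonin libraries lay above MCD, and the log2 fold change was 0.85 ± 0.16 (adjusted p = 0.0034).

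Sds, serine dehydratase, a fasting-induced enzyme that turns serine into pyruvate, had 31.9 FPKM in the lowest limonin library, a median of 53.6 and 127 in the highest, against 29.4, 37.3, 36.1, 53.6 and 51.0 FPKM in MCD 1 to 5. The limonin libraries ranged far more widely than those of MCD, and the log2 fold change of 0.55 had a 95% confidence interval of -0.19 to 1.29 (adjusted p = 0.25). Of the exonic bases of Sds 21.3% lie opposite Plbd2, which averaged 17.0 FPKM with limonin and 16.3 FPKM in MCD. Its paralog Sdsl had a log2 fold change of 0.04 ± 0.13 (adjusted p = 0.826). Prodh, proline dehydrogenase, had 22.1 FPKM in the lowest limonin library, a median of 26.3 and 31.5 in the highest, against 22.9, 37.4, 28.9, 29.8 and 23.9 FPKM in MCD 1 to 5. The ranges overlapped and the log2 fold change was -0.12 ± 0.13 (adjusted p = 0.528); at an equal hepatocyte marker level Prodh passed as lower, at -0.39, and the call of Amt was lost, as it was without both MCD 1 and MCD 2.

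**Figure D2:**
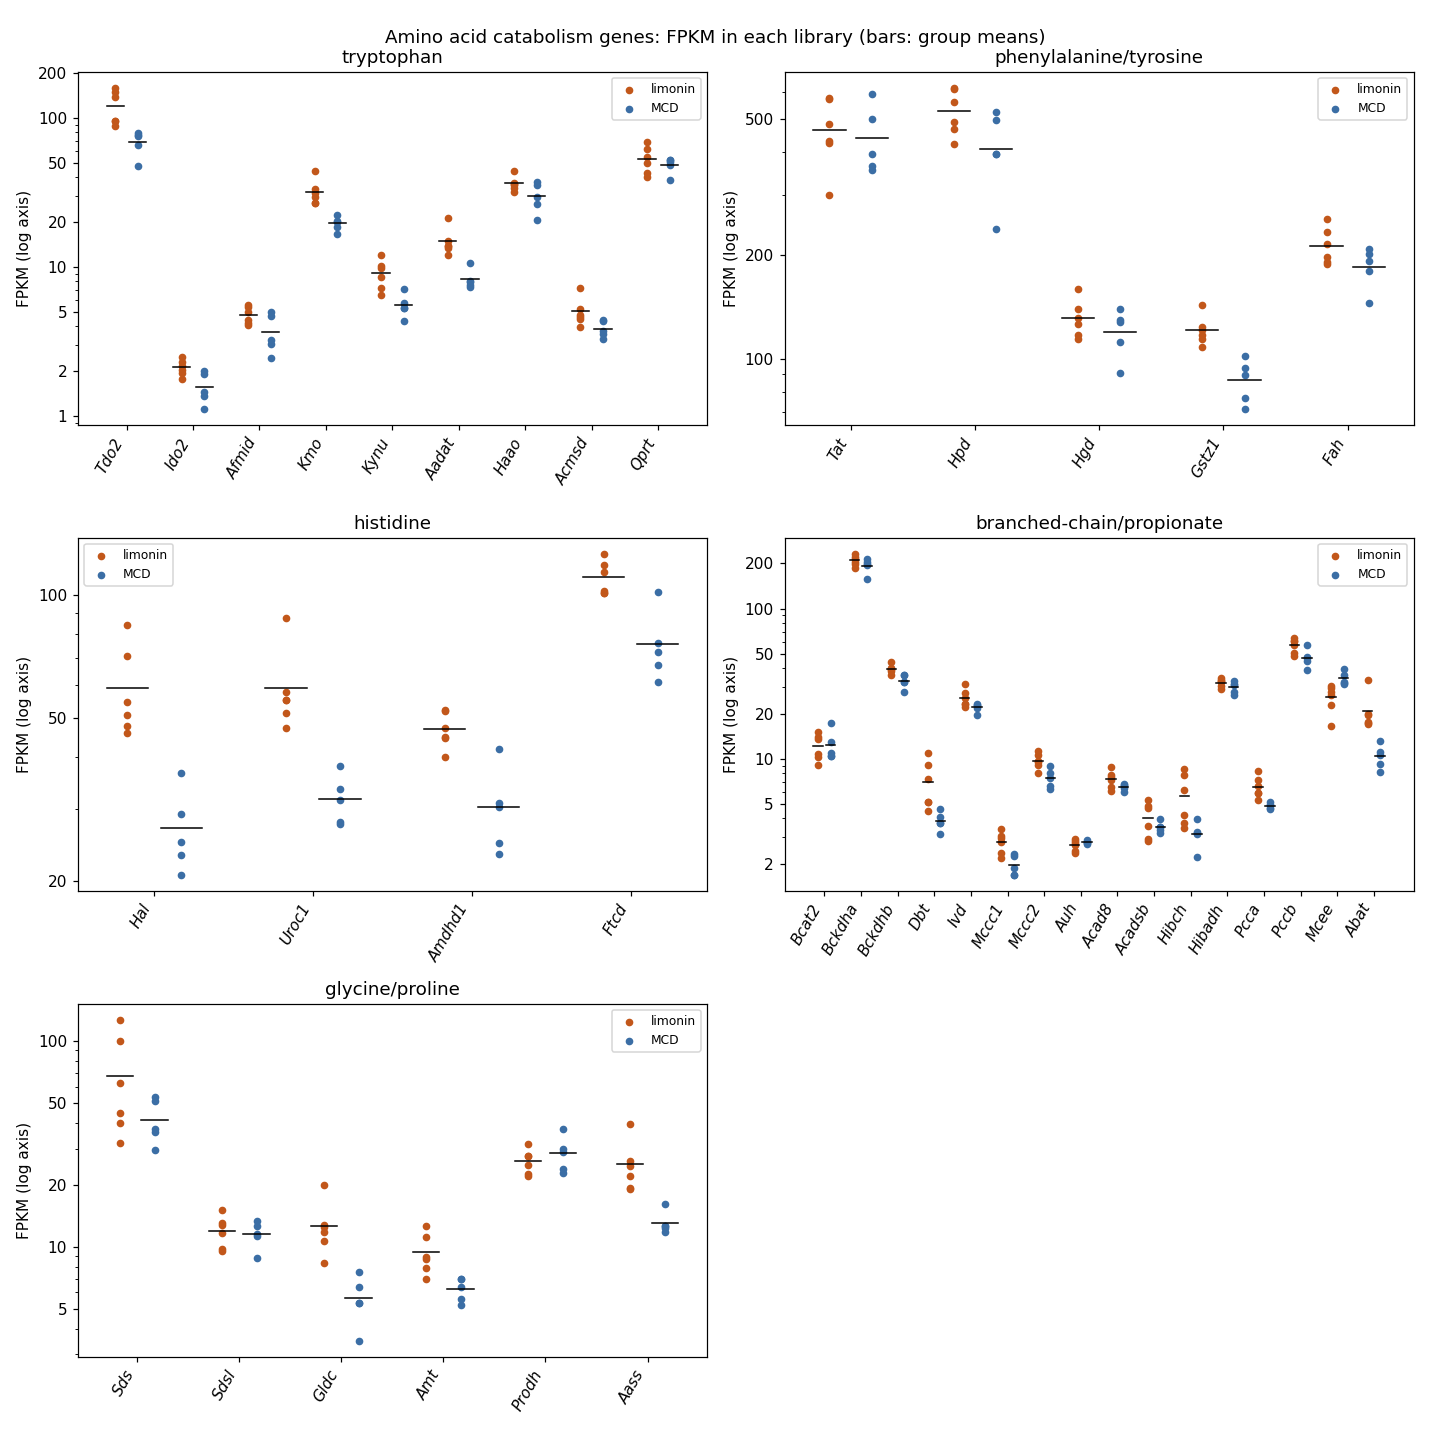
FPKM of each of the 40 genes in each of the 6 limonin and 5 MCD libraries, by arm, on a log axis; bars are group means. Hal, Uroc1, Tdo2, Kmo, Aadat, Gstz1, Abat, Pcca, Bckdhb, Gldc and Aass show limonin libraries wholly above MCD libraries, Mcee shows them wholly below, and Tat, Bcat2 and Sdsl show ranges that lie over each other.

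Beyond the 40 genes, a list of 56 further genes of amino acid catabolism was counted in the same fit. Of the 51 tested, 20 were higher with limonin and 0 were lower (31 did not pass), and their median log2 fold change was 0.23. Over all genes tested, 7.24% were higher and 18.7% lower. Without MCD 2 the number higher was 11, where 3.13% of all genes were higher. Without both MCD 1 and MCD 2 it was 1, against 0.515% of all genes. At an equal hepatocyte marker level 3 were higher and 4 lower, against 1.39% and 38.0% of all genes. The 7 with the smallest p were Ddc, Pipox, Aldh7a1, Echs1, Mmut, Dmgdh and Aldh6a1. Ddc, aromatic amino acid decarboxylase, had 6.37 to 9.88 FPKM with limonin and 3.48 to 5.38 FPKM in MCD (log2 fold change 0.70 ± 0.13, adjusted p = 0.00321). Pipox, which oxidises pipecolate and sarcosine, had 16.1 to 24.5 FPKM with limonin and 9.85 to 16.2 FPKM in MCD (log2 fold change 0.74 ± 0.14, adjusted p = 0.00348). Mmut, methylmalonyl-CoA mutase, acts directly after Mcee and was higher, by 0.79 ± 0.19 (adjusted p = 0.00989). The rest of the 7 act in lysine breakdown (Aldh7a1), valine breakdown (Echs1 and Aldh6a1) and choline breakdown to sarcosine (Dmgdh), with log2 fold changes of 0.41 to 0.66. At an equal hepatocyte marker level Aldh7a1, Echs1, Dmgdh and Aldh6a1 did not pass. The kinase and the phosphatase that turn the branched-chain ketoacid dehydrogenase off and on, Bckdk and Ppm1k, did not pass, with log2 fold changes of -0.22 ± 0.12 (adjusted p = 0.181, or 0.0405 without limonin 3 and 0.0214 at an equal hepatocyte marker level) and 0.16 ± 0.16 (adjusted p = 0.494).

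A list of regulators known to act on such genes held transcription regulators and the hormone receptors Gcgr and Insr, neither of which passed. Of the 15 tested, 4 were higher with limonin and 1 was lower, against 7.24% and 18.7% of all genes tested. Klf15, a glucocorticoid-induced activator of amino acid breakdown, had a log2 fold change of 0.64 ± 0.17 (adjusted p = 0.0183, or 0.0562 without MCD 2). Ppara, the fasting-activated receptor of fatty acids, had 0.75 ± 0.21 (adjusted p = 0.0219, or 0.0526 without MCD 2). Foxo1, a fasting factor restrained by insulin, had 0.34 ± 0.10 (adjusted p = 0.0276), lost without any 1 of limonin 2 or MCD 1, 4 or 5. Hnf4a, a factor of hepatocyte identity, had 0.45 ± 0.14 (adjusted p = 0.0344), lost without any 1 of limonin 2, 3 or 4 or MCD 1, 2, 3 or 5. Cebpb, a factor of the acute-phase response and gluconeogenesis, was the lower one, at -0.41 ± 0.12 (adjusted p = 0.0238), lost without any 1 of limonin 4, MCD 2 or MCD 4. The call of Cebpb was also lost with median-ratio scaling and equal summed FPKM (limma adjusted p = 0.0946 and 0.067). With the replicate block the calls of Foxo1, Hnf4a and Cebpb were lost, and without MCD 4 and 5 those of Ppara, Foxo1, Hnf4a and Cebpb. At an equal hepatocyte marker level the calls of Klf15, Foxo1 and Hnf4a were lost. All 5 calls were lost without both MCD 1 and MCD 2, and with no filter on low values.

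Ratios within a library were compared for 8 pairs of enzymes or subunits, with exact two-sided permutation tests over the 11 libraries, for which the smallest possible p is 0.00216. The ratios are of FPKM as given, not of FPKM + 1. Their log2 differences therefore need not equal the gaps between the fold changes given above. None of the 8 pairs passed after Benjamini-Hochberg adjustment over the pairs. The ratio of Gldc to Amt was 0.953 in the lowest limonin library, a median of 1.37 and 1.69 in the highest, against 0.6253 to 1.08 in MCD libraries. Its mean log2 was higher with limonin by 0.59 (exact permutation p = 0.0173, adjusted 0.139). Between the routes away from and towards NAD, the ratio of Acmsd to Qprt differed by 0.25 on the log2 scale (exact permutation p = 0.286). Between the dioxygenases Tdo2 and Ido2 the difference was 0.34 (exact permutation p = 0.193), and between Bckdha and Bckdhb it was -0.16 (exact permutation p = 0.0671). For the subunits of the carboxylases the differences were 0.14 for Mccc1 to Mccc2 and 0.13 for Pcca to Pccb, with exact permutation p of 0.173 and 0.24. For Sds to Sdsl it was 0.51 and for Bckdk to Ppm1k -0.47, with exact permutation p of 0.13 and 0.175.

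The libraries of a group were not alike. The median log2 deviation of the 40 genes from the midpoint of the group means was 0.17, 0.37, 0.18, 0.17, 0.12 and 0.04 in limonin 1 to 6, against -0.34, -0.20, -0.18, 0.01 and -0.17 in MCD 1 to 5. Limonin 2 was the highest limonin library in 21 of the 40 genes, and limonin 6 the lowest in 11. MCD 4 was the highest MCD library in 28 of the 40 genes, among them all 4 of the histidine arm and 12 of 16 of the branched-chain arm, and MCD 1 was the lowest in 22. The relative level of 20 hepatocyte markers, as a geometric mean, was 0.956 to 1.253 in limonin libraries and 0.825 to 0.987 in MCD libraries, with limonin 2 the highest and MCD 1 the lowest. These markers did not move alike. Their log2 fold changes ran from -0.65 for Apoa1 to 1.38 for Fga, with 14 of the 20 above 0. Fgb and Fgg, at 0.96 and 1.16, were also higher. Limonin 2 had the highest Fga, Fgb and Fgg, at 2141, 1323 and 2108 FPKM. The same library had the lowest Ttr, Apoa1, Apoa2 and Apoc3 of all 11 libraries, at 2782, 1956, 5202 and 888.5 FPKM. Its summed level of the 20 markers, 67650 FPKM, lay below those of limonin 4, 5 and 6 and of MCD 3. Cps1, Ass1 and Pck1 are on the periportal list too, and Cyp2e1 on the pericentral list.

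**Figure D3:**
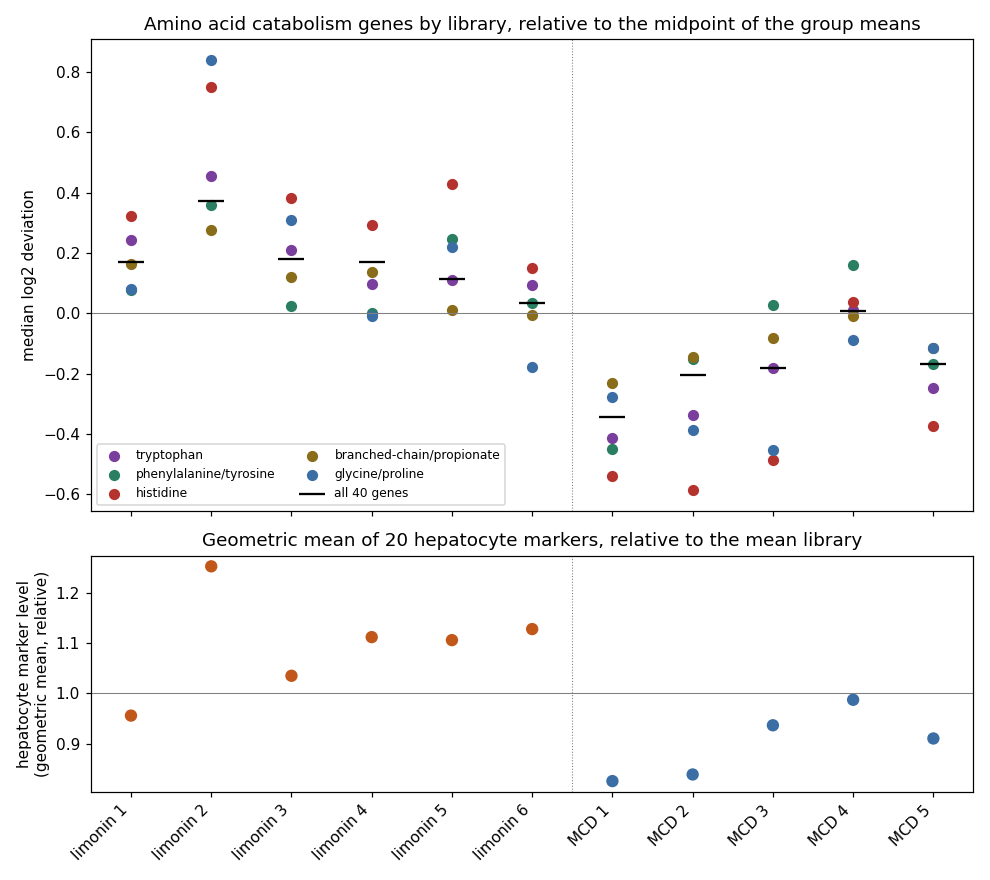
Upper panel, median log2 deviation of each arm and of all 40 genes (bars) in each limonin and MCD library, relative to the midpoint of the group means; lower panel, relative geometric mean of 20 hepatocyte markers. The values of the 40 genes run from 0.04 to 0.37 in limonin libraries and from -0.34 to 0.01 in MCD libraries.

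Markers of several liver cell types differed between the groups. The counts below stand beside 7.24% of all genes tested that were higher with limonin and 18.7% that were lower. Summed levels below are over every listed marker found in the table, which can be more than were tested. Of 20 hepatocyte markers 6 were higher with limonin and 0 lower, and their summed level was 60040 to 81240 FPKM with limonin and 55750 to 68790 FPKM in MCD; 1 was lower without limonin 4 and 2 without limonin 5. Of 14 periportal markers 8 were higher and 0 lower (5 higher without MCD 2), at 2058 to 3517 FPKM with limonin and 1595 to 2042 FPKM in MCD, and without Hal and Sds, which belong to both lists, 7 of 12 were higher. Of those 12, Gls2, which was higher, is also among the further catabolic genes counted above, as is Oat of the pericentral list. Of 13 pericentral markers tested 3 were higher and 1 lower, and the 14 in the table summed to 5735 to 8313 FPKM with limonin and 4713 to 6623 FPKM in MCD; the lower call was lost without limonin 2, 4 or 6 or MCD 2, and 2 were lower without limonin 5 or MCD 1. Of 14 stellate cell and fibroblast markers 11 were lower, with sums of 64.95 to 90.08 FPKM for limonin and 113.2 to 215.0 FPKM for MCD. Of 7 cholangiocyte markers tested all 7 were lower, and the 10 in the table summed to 22.61 to 91.27 FPKM with limonin and 73.52 to 459.9 FPKM in MCD. Of 12 macrophage markers tested 7 were lower (2 without MCD 2 and 4 without limonin 2), and the 14 in the table summed to 126.3 to 216.3 FPKM with limonin and 205.6 to 787.6 FPKM in MCD. Of 4 lymphocyte markers tested 3 were lower, and the 12 in the table summed to 4.012 to 10.08 FPKM with limonin and 9.509 to 18.08 FPKM in MCD. Of 4 neutrophil markers tested 3 were lower (0 without MCD 2), and the 7 in the table summed to 4.368 to 8.651 FPKM with limonin and 5.836 to 38.69 FPKM in MCD. Of 9 endothelial markers tested 1 was higher and 1 lower, and neither call was made without limonin 2, 3, 4 or 6 or MCD 2 or 5; the 10 in the table summed to 43.25 to 58.98 FPKM with limonin and 39.73 to 76.97 FPKM in MCD. Neither of the 2 kidney and pancreas markers tested passed, and the 8 in the table summed to 5.71 to 9.887 FPKM with limonin and 7.75 to 9.946 FPKM in MCD. None of the markers summed here was at 0 in all 11 libraries; 4 of 12 kidney and pancreas markers and 1 of 21 hepatocyte markers were not analysed here. Without both MCD 1 and MCD 2, 0 hepatocyte, 2 periportal and 1 pericentral marker were higher, against 0.515% of all genes. In that setting 5 stellate cell, 2 cholangiocyte, 1 macrophage, 2 lymphocyte and 0 neutrophil markers were lower, against 3.15% of all genes. With the replicate block 0 hepatocyte markers were higher, against 3.45% of all genes. The part of these cell markers in the differences of the 40 genes was not tested.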

How the data were processed

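Poly(A) RNA of mouse liver was made into 11 libraries by a dUTP procedure that marks the strand, per the labels' protocols. Cutadapt 1.9, HISAT2 2.0.4 and StringTie 1.3.4d are named, with the build GRCh38, per the submitters' processing notes, although the gene identifiers are those of mouse; use of strand in quantification is not stated there. Per the file headers, the authors deposited FPKM for every gene in every library (0 columns were left unmapped), together with their own fold change as a ratio of group means, the log2 of that ratio, a p-value and a q-value. How the authors computed those p-values is not stated. With no counts in use, no count model was fitted, and depth was implied from low FPKM read as single fragments.

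FPKM were transformed to log2(FPKM + 1), which understates the change of low genes, and a gene was tested if 5 or more libraries reached 1 FPKM. limma 3.58.1 (R 4.3.3, trend and robust options, two-sided) gave p-values, adjusted by Benjamini-Hochberg across the tested genes and read at 0.05, a procedure tested on simulated data. Enzyme ratios were compared by exact permutation in Python 3.11.15 with scipy 1.17.1. Means are given ± SD, fold changes ± SE. Positions are those of GENCODE M21 (GRCm38), matched by gene identifier, and promoters are those of RefSeq. Identical libraries were looked for, and 0 pairs were found. Alternatives covered the filter, pseudocount, scaling, variance trend, library weights, replicate block and libraries left out.

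The 40 genes and all lists were chosen with earlier results of these data known. All 40 were accounted for; of the further catabolic genes the 8 with the smallest p were to be named, of which 1 is not reported here, with Bckdk and Ppm1k, and of the regulators those that passed, at most 6.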

Additional observations from a re-analysis of the deposited data

Results flagged for a closer look

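Among 80 sets of values, 40 genes in each of the 2 groups, 8 held a highest or lowest library whose gap to the next was wide for the range of its group (Dixon's test at the 95% level); chance gives about 1 in 20. In 5 of the 8 the library was limonin 2. It stood alone at the top for Kmo, at 43.71 FPKM against 26.69 to 33.05 FPKM in the other limonin libraries, for Aadat, at 21.32 FPKM against 11.92 to 14.97 FPKM, and for Uroc1, at 87.79 FPKM against 47.2 to 57.86 FPKM. The same library stood apart for Abat, at 33.59 FPKM against 17.1 to 19.72 FPKM, and for Aass, at 39.36 FPKM against 19.18 to 26.21 FPKM. The gap took up 0.626, 0.676, 0.737, 0.841 and 0.652 of the range of the group in Kmo, Aadat, Uroc1, Abat and Aass. These 5 genes were also called higher without limonin 2.

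In the MCD group, MCD 4 stood above the other libraries for Aadat, at 10.62 FPKM against 7.289 to 8.068 FPKM (0.766 of the range), and for Aass, at 16.13 FPKM against 11.78 to 12.62 FPKM (0.806 of the range). MCD 1 stood below the others for Qprt, at 38.12 FPKM against 48.44 to 52.37 FPKM (0.724 of the range).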

How the results depend on the processing

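Of the 40 genes, 12 of the 20 called kept their call in every fit without 1 library, and 6 (Kmo, Aadat, Hal, Uroc1, Gldc and Aass) also in all other settings. Leaving out 1 library gave 12 to 21 genes higher, 0 to 1 lower, and 1408 to 3062 of all genes called, against 2716 with all libraries. The numbers higher and lower were 12 and 0 with no filter on low values, 23 and 0 with median-ratio scaling, 24 and 0 at equal summed FPKM, 15 and 0 without MCD 4 and 5, and 13 and 0 by the authors' calls. The authors' calls do not rest on q alone, so their threshold is unlike that of the limma calls. A further pair of settings was chosen after seeing the data: without MCD 1 and 2 (6 and 0) and equal hepatocyte marker level (9 and 2). All genes called numbered 1424 with a filter of 5 FPKM, 1533 by the authors' calls, 384 without MCD 1 and 2, and 4130 at equal hepatocyte level. Higher genes were 27.9% of calls, against 48.1% with median-ratio scaling, 52.9% with quantile normalization, 49.6% at equal summed FPKM and 3.54% at equal hepatocyte level.

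Deviations of same-numbered libraries from their group means correlated at 0.0761, -0.235, -0.169, 0.204 and -0.172, and 1 of 5 numbers correlated best with its own. These correlations cannot show whether the numbers pair animals, which no label states. With the replicate block, 15 of the 40 genes were higher, 0 lower, and 1257 of all genes were called.

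The sign turned in genes that had not passed, Bckdhb excepted. At equal hepatocyte level the log2 fold changes were -0.101 for Acad8, -0.093 for Acadsb, -0.169 for Bckdha, -0.014 for Bckdhb, -0.080 for Fah, -0.145 for Hgd, -0.179 for Hibadh, -0.078 for Ivd, -0.0043 for Pccb, -0.034 for Ppm1k, -0.169 for Qprt, -0.219 for Sdsl and -0.213 for Tat. Hgd was at -0.015 without MCD 1 and 2, and Prodh at 0.00038 at equal summed FPKM. Median-ratio, quantile and equal-sum scaling gave 0.023, 0.067 and 0.039 for Auh and 0.066, 0.053 and 0.085 for Bcat2, which was at 0.0012 with the block, 0.084 without MCD 4 and 5, and -0.091 to 0.090 over the fits without 1 library. Sdsl was at -0.039 to 0.10 over those fits. The cause was not tested. FPKM without counts limits the precision known for low genes.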
